A study of Mus musculus with 13 samples.

Results

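The heat shock chaperone genes described here are 10 genes chosen by symbol: Hspa1a, Hspa1b, Hspa8, Hsph1, Dnajb1, Bag3, Hsp90aa1, Hspb1, Hspa5 and Hsf1. On the array, 9 of the 10 have a probe set annotated to that symbol alone, with 23 such probe sets between them. Hsf1 has none and was not analysed here. All 9 passed the filter on dim genes, among 13785 genes tested of 18193 with a probe set of their own. The set was assembled because Hspa1a and Hspa1b differed between dabrafenib and trametinib tumours, so their levels in those tumours are given as a description, without a test.

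RNA from SM1 tumours was hybridised to 13 Affymetrix mouse arrays, 1 tumour sample per array. SM1 is a transplantable mouse melanoma with an activating BRAF mutation, so all 6 groups share 1 tumour line, and the mice that carried it had received splenocytes by adoptive transfer. Splenocytes of pmel-1 mice, a strain with a transgenic T cell receptor that sees gp100 of melanocytes, were combined with dabrafenib and trametinib together (3 arrays), dabrafenib (2 arrays), trametinib (2 arrays) or vehicle (2 arrays). Splenocytes of C57BL/6 mice, the control transfer, were combined with both drugs (2 arrays) or vehicle (2 arrays). Dabrafenib inhibits the mutant BRAF kinase, and trametinib inhibits MEK, the kinase that BRAF activates. No group without a transfer and no single drug with the control transfer was measured on the arrays used here. The labels give no age, dose, time or batch and do not name separate animals for the arrays of a group. The p-values therefore cover the spread among the arrays, part of which may be technical.

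Heat shock proteins are chaperones that hold, refold or hand over unfolded proteins. In the heat shock response, unfolded proteins draw chaperones away from heat shock factor HSF1, which then forms trimers, binds repeated GAA units in promoters (heat shock elements) and switches on Hspa1a, Hspa1b, Hsph1, Dnajb1, Hsp90aa1, Hspb1 and Bag3. HSP70 and HSP90 also fold kinases, and BRAF with an activating mutation is known as an HSP90 client. Hspa8 is the constitutive HSP70 of the cytosol, and Hspa5 (BiP) is the HSP70 of the endoplasmic reticulum, which answers to the unfolded protein response and its ER stress elements rather than to HSF1.

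The promoter windows below carry the letters through which HSF1 or the ER stress factors are known to act, and they show how alike the pair Hspa1a and Hspa1b is. RefSeq windows on GRCm38.p6, from 250 bases before to 50 after the annotated start, were found for 7 of the members, 9 windows in all. Capitals mark heat shock elements of 2 units (GAANNTTC or TTCNNGAA, each of which reads the same on both strands), the heat shock element of 3 units (GAANNTTCNNGAA on either strand, which holds 2 overlapping elements of 2 units) and the ER stress element (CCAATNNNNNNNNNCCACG on either strand). The windows lie at chr17:34972107-34972406 (minus strand) for Hspa1a, chr17:34959189-34959488 (minus strand) for Hspa1b, chr5:149636266-149636565 (minus strand) for Hsph1, chr5:135887669-135887968 (plus strand) for Hspb1 and chr2:34771840-34772139 (plus strand) for Hspa5.
Hspa1a: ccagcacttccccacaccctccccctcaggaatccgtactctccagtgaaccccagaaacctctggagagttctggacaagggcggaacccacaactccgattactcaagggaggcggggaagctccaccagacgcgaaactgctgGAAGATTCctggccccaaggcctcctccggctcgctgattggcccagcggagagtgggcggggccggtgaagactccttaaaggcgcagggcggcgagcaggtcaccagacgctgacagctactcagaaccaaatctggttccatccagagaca
Hspa1b: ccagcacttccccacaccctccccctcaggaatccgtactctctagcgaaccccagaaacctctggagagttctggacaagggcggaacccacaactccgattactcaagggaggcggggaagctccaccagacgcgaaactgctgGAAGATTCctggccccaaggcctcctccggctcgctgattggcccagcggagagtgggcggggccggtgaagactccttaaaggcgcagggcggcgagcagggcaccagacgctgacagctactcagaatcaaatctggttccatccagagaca
Hsph1: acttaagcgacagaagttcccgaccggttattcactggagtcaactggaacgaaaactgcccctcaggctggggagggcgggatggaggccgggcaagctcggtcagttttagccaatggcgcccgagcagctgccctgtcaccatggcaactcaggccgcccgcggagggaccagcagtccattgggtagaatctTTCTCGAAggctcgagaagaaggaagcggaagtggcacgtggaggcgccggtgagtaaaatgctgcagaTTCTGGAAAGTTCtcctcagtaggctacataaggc
Hspb1: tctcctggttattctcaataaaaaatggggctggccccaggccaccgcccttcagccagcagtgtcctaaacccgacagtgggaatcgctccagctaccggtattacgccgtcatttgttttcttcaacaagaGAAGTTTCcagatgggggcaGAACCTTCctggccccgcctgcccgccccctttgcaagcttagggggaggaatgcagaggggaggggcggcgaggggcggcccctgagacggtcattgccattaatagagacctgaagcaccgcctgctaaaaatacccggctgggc
Hspa5: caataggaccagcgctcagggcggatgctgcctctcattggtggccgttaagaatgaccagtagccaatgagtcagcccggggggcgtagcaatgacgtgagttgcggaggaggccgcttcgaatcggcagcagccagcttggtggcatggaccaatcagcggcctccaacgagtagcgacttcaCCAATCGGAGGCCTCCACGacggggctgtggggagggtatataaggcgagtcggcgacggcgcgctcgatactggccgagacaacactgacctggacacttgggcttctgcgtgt

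The Hspa1a and Hspa1b windows were identical at 296 of 300 positions (98.7%), and each held 1 element of 2 units, from position -104 to -97 relative to the start. The 2 genes lie on chromosome 17, 10120 bases apart. Both Hsph1 windows held the element of 3 units and 3 elements of 2 units. The element of 3 units lay 15 to 27 bases after the annotated start of the window shown. It lay 36 to 48 bases after the other annotated start, which is upstream. Hspb1 held 2 elements of 2 units, beginning at positions -117 and -97, and Bag3 held 1. Neither Dnajb1 window held one, and the Hspa5 window held no heat shock element but 1 ER stress element, 65 to 47 bases before the start. Among all 32851 mouse promoter windows, 15.1% held an element of 2 units, 0.603% one of 3 units and 0.119% the ER stress element. A match describes the letters and not a bound site.

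**Figure D1:**
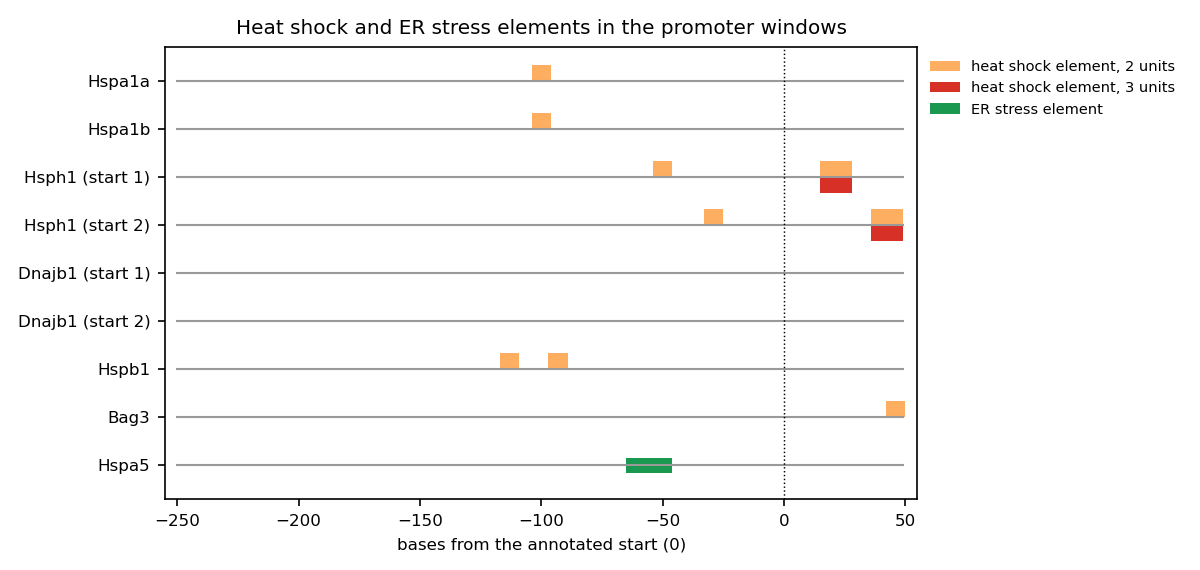
Matches in the 9 promoter windows, by distance in bases from the annotated start (dotted line), for heat shock elements of 2 units (orange), of 3 units (red) and the ER stress element (green). Hspa1a and Hspa1b carry 1 match at the same place, Hsph1 the only 3-unit matches among the members, and Hspa5 the only ER stress element.

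All values are log2 intensities as the authors deposited them, so a difference of 1 is 2-fold, and levels of different probe sets are not set against each other. The tumour label was checked on 7 melanoma markers, which averaged 12.6 to 12.8 on the 9 arrays with a drug and at most 12.1 on the 4 vehicle arrays. Of these, Tyrp1 read under the filter level of 5.79 on every vehicle and control combination array. The 7 leukocyte markers averaged 9.33 to 9.77 in pmel-1 combination, 9.22 to 9.82 in dabrafenib, 7.76 to 8.31 in trametinib and 7.50 to 7.51 in pmel-1 vehicle tumours, and 7.54 to 7.71 in control combination against 6.92 to 6.95 in control vehicle tumours. The 3′ over 5′ signal of the array's actin and Gapdh control probes, which rises as RNA degrades, had a log2 ratio of 0.60 to 1.65 on the 7 arrays of drug-treated pmel-1 tumours, and of 0.18 to 0.42 on the other arrays. Adipoq, a fat cell gene, read over 9 on 3 arrays, which are replicate 1 of trametinib and replicate 2 of dabrafenib and of the pmel-1 combination.

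**Figure D2:**
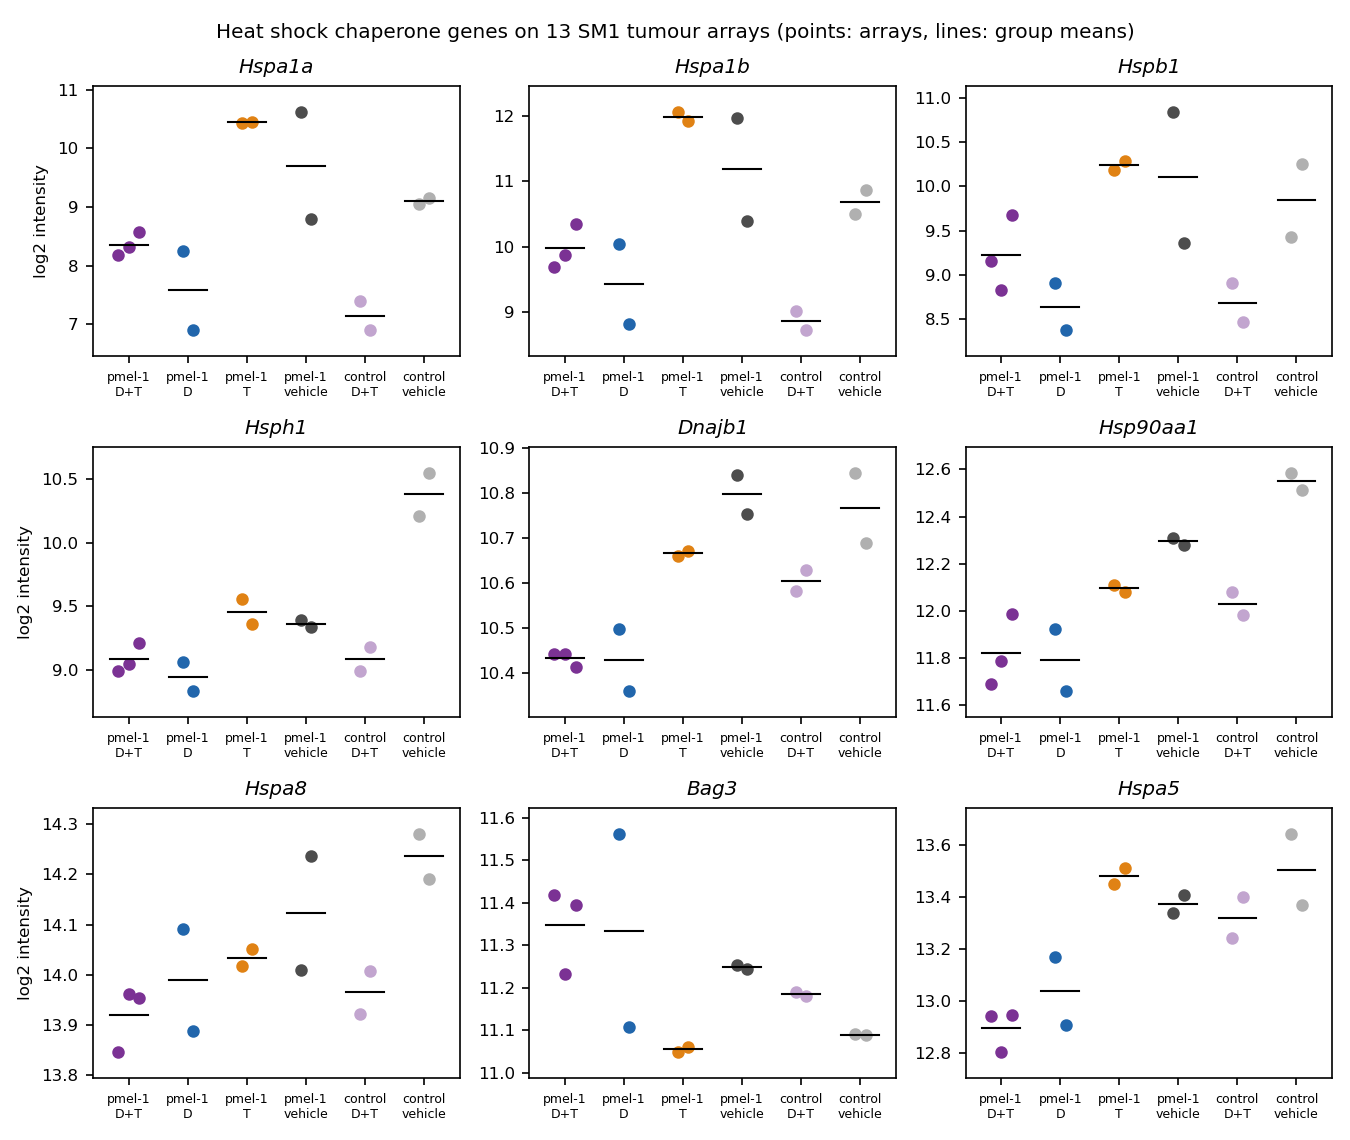
Log2 intensity (y axis) of the 9 measured genes on each array (points) with group means (lines), in tumours given both drugs (D+T), dabrafenib (D), trametinib (T) or vehicle after pmel-1 or control transfer. Hspa1a, Hspa1b and Hspb1 are lowest in the control combination and dabrafenib tumours, with group means of 7.15 and 7.58 for Hspa1a, and highest in the trametinib tumours, with 10.44.

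Whether the drug combination moved these genes was asked in both kinds of recipient, by comparing groups other than the dabrafenib and trametinib tumours. The members were still chosen with earlier results of these data known. The fit also took each gene's spread from all 13 arrays, those tumours included. Averaged over both kinds of recipient, 8 of the 9 genes fell with the combination and none rose. Hspa1a and Hspa1b fell the most, 3.14-fold and 2.84-fold, followed by the small heat shock protein gene Hspb1 (2.03-fold) and the HSP110 gene Hsph1 (1.72-fold). Falls were also common elsewhere: of all genes tested, 52.6% changed, 28.1% rose and 24.5% fell (limma, Benjamini-Hochberg adjusted p under 0.05 over 13785 genes). The median of the 9 genes was -0.50 on the log2 scale, against 0.01 for all genes tested. In bulk tumour RNA, fewer cells of a type and less RNA per cell cannot be told apart.

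Hspa1a and Hspa1b encode the stress-inducible HSP70, with nearly the same protein. In control recipients Hspa1a read 7.39 and 6.90 in the combination tumours, against 9.06 and 9.15 in the vehicle tumours. Hspa1b read 9.02 and 8.73 in control combination tumours, against 10.51 and 10.86 in control vehicle tumours. Both combination arrays lay below both vehicle arrays for each gene. The 5 fibroblast markers, averaged per array, were higher with the combination, at 10.1 to 10.6, against 8.17 to 9.48 in control vehicle tumours. Pdgfra among them was lower, at 6.37 and 6.78 in control combination and 6.85 and 7.37 in control vehicle tumours. The part of these markers in the result was not tested. Hspa1a fell by 1.96 ± 0.51 (SE) on the log2 scale (adjusted p = 0.0111) and Hspa1b fell by 1.81 ± 0.47 (adjusted p = 0.0108), and of all genes tested 35.4% changed, 18.7% rose and 16.7% fell in this comparison. The 3′ over 5′ log2 ratio of these groups was close, 0.30 ± 0.17 in combination and 0.27 ± 0.02 in vehicle tumours (SD, n = 2 each), and with that ratio as a covariate the Hspa1a change was -1.92 (adjusted p = 0.0066). With 2 arrays a group the calls rested on single arrays: without control combination replicate 3 the Hspa1a change was -1.71 (adjusted p = 0.0825), and without control vehicle replicate 3, on which the muscle gene Acta1 was high, it was -1.91 (adjusted p = 0.0582).

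In pmel-1 recipients Hspa1a read 8.18, 8.32 and 8.58 in the combination tumours, against 10.62 and 8.80 in the vehicle tumours. Hspa1b read 9.70, 9.88 and 10.35 in pmel-1 combination tumours, against 11.97 and 10.39 in pmel-1 vehicle tumours. The groups did not overlap, but the second vehicle array lay much closer to the combination arrays than to the first vehicle array for both genes. Hspa1a fell by 1.35 ± 0.46 on the log2 scale (adjusted p = 0.0335) and Hspa1b by 1.20 ± 0.43 (adjusted p = 0.0378), where 45.6% of all genes tested changed, 24.3% rose and 21.2% fell. Without pmel-1 vehicle replicate 1 the changes were -0.44 (Hspa1a, adjusted p = 0.457) and -0.42 (Hspa1b, adjusted p = 0.475), and without pmel-1 combination replicate 1 or 2 the Hspa1a change was -1.26 (adjusted p = 0.08) or -1.33 (adjusted p = 0.0717). Averaged per array, leukocyte and fibroblast markers were higher in these combination tumours than in their vehicle tumours. Fibroblast markers averaged 8.59 to 9.52 in pmel-1 combination and 8.15 to 8.30 in pmel-1 vehicle tumours. Pdgfra among them was lower, at 5.87 to 6.58, against 6.84 and 7.13 in pmel-1 vehicle tumours. The 3′ over 5′ ratio was also higher, and with the ratio as a covariate the Hspa1a change was -0.42 (adjusted p = 0.706). The part of the leukocyte and fibroblast markers in the result was not tested.

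Hsph1 encodes HSP110, a chaperone related to HSP70 that exchanges its nucleotide. It read 8.99 and 9.18 in control combination tumours, against 10.21 and 10.54 in control vehicle tumours. It read 8.99, 9.05 and 9.21 in pmel-1 combination tumours, against 9.39 and 9.34 in pmel-1 vehicle tumours. On this probe set the combination tumours of both recipients stood at one level, and the control vehicle tumours stood above every other array of the study. Hsph1 fell by 1.29 ± 0.14 in control recipients (adjusted p = 6.12e-05) and differed by -0.28 ± 0.13 in pmel-1 recipients (adjusted p = 0.105). The difference between these effects was 1.01 ± 0.19, with an adjusted p of 0.0662. The dimmer second probe set of Hsph1 gave -0.77 ± 0.17 in pmel-1 recipients (limma on every probe set, adjusted p = 0.0044), a difference between the effects of 0.44 ± 0.26 (adjusted p = 0.407) and a difference of -0.44 ± 0.17 between pmel-1 and control combination tumours (adjusted p = 0.153), so the call in pmel-1 recipients depended on the probe set.

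Hspb1 encodes HSP27, a small heat shock protein that holds unfolded proteins without ATP. It read 8.90 and 8.46 in control combination tumours, against 9.43 and 10.26 in control vehicle tumours. It read 9.16, 8.83 and 9.67 in pmel-1 combination tumours, against 10.84 and 9.36 in pmel-1 vehicle tumours. The groups overlapped in pmel-1 recipients and did not in control recipients. Averaged over both recipients Hspb1 fell by 1.02 ± 0.30 (adjusted p = 0.0127), while the change of -1.16 ± 0.44 in control recipients (adjusted p = 0.0601) and of -0.88 ± 0.40 in pmel-1 recipients (adjusted p = 0.0951) did not pass alone. The dimmer second Hspb1 probe set passed in both, with -1.34 ± 0.43 in control recipients (adjusted p = 0.037) and -1.11 ± 0.39 in pmel-1 recipients (adjusted p = 0.0394). The averaged call was lost without pmel-1 vehicle replicate 1 (-0.65, adjusted p = 0.0514), control combination replicate 3 (-0.91, adjusted p = 0.0528) or control vehicle replicate 3 (-0.81, adjusted p = 0.06), and after adjustment for the 3′ over 5′ ratio (-0.72, adjusted p = 0.143).

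Hsp90aa1, the inducible cytosolic HSP90, read 11.69, 11.79 and 11.99 in pmel-1 combination tumours, against 12.31 and 12.28 in pmel-1 vehicle tumours. It read 12.08 and 11.98 in control combination tumours, against 12.58 and 12.51 in control vehicle tumours. Every combination array lay below every vehicle array of its recipient kind. The falls were 0.47 ± 0.11 in pmel-1 (adjusted p = 0.0049) and 0.52 ± 0.12 in control recipients (adjusted p = 0.0067), and the first was -0.24 after adjustment for the 3′ over 5′ ratio (adjusted p = 0.267). Without control combination replicate 3 the second was -0.47 (adjusted p = 0.0524).

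Dnajb1, the J protein (HSP40) that hands clients to HSP70 and stimulates its ATPase, read 10.44, 10.44 and 10.41 in pmel-1 combination tumours, against 10.84 and 10.75 in pmel-1 vehicle tumours. In control recipients it read 10.58 and 10.63 in combination tumours, against 10.84 and 10.69 in vehicle tumours. The arrays did not overlap in either recipient. Dnajb1 fell by 0.36 ± 0.09 in pmel-1 recipients (adjusted p = 0.006) and differed by -0.16 ± 0.10 in control recipients (adjusted p = 0.232). The dimmer second Dnajb1 probe set passed in both (limma on every probe set). It gave -1.33 ± 0.17 in pmel-1 recipients (adjusted p = 0.000168) and -0.63 ± 0.19 in control recipients (adjusted p = 0.0289). The call in control recipients thus depended on the probe set. On the brighter probe set the pmel-1 call was lost without pmel-1 vehicle replicate 1 (-0.32) and with the ratio as a covariate (-0.30, adjusted p = 0.135).

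Hspa8, the constitutive HSP70, read 13.85, 13.96 and 13.95 in pmel-1 combination tumours, against 14.01 and 14.24 in pmel-1 vehicle tumours. It read 13.92 and 14.01 in control combination tumours, against 14.28 and 14.19 in control vehicle tumours. The difference was small beside that of the inducible pair: -0.24 ± 0.08 averaged over both recipients (adjusted p = 0.0215), a call lost without pmel-1 vehicle replicate 2 (-0.18, adjusted p = 0.0964), control combination replicate 2 (-0.22, adjusted p = 0.0695) or control vehicle replicate 1 (-0.21, adjusted p = 0.0705), and with the ratio as a covariate (-0.16, adjusted p = 0.179). These values are of the brightest Hspa8 probe set. The dimmest fell by 1.39 ± 0.16 in control recipients (limma on every probe set, adjusted p = 0.000101). In pmel-1 recipients it differed by -0.28 ± 0.14 (adjusted p = 0.139), and the difference between these effects was 1.11 ± 0.21 (adjusted p = 0.0569). The remaining Hspa8 probe sets differed by -0.23 ± 0.26 and -0.04 ± 0.14 in control recipients. Bag3, which joins HSP70 to small heat shock proteins and to autophagy, read 11.42, 11.23 and 11.39 in pmel-1 combination tumours, against 11.25 and 11.24 in pmel-1 vehicle tumours. It read 11.19 and 11.18 in control combination tumours, against 11.09 and 11.09 in control vehicle tumours. Bag3 was the member that did not pass in this averaged comparison, with a difference of 0.10 ± 0.09 (adjusted p = 0.408).

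Hspa5, the endoplasmic reticulum member, read 12.94, 12.80 and 12.95 in pmel-1 combination tumours, against 13.34 and 13.41 in pmel-1 vehicle tumours. It read 13.24 and 13.40 in control combination tumours, against 13.64 and 13.37 in control vehicle tumours. The arrays were apart in pmel-1 recipients and overlapped in control recipients. Hspa5 fell by 0.47 ± 0.12 in pmel-1 recipients (adjusted p = 0.0062) and differed by -0.18 ± 0.13 in control recipients (adjusted p = 0.301). After adjustment for the 3′ over 5′ ratio the pmel-1 difference was -0.31 (adjusted p = 0.226).

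Whether the transferred cells changed the genes was asked among vehicle and among combination tumours. Among vehicle tumours, pmel-1 against control, 0 of the 9 genes passed in limma, and 0% of all genes tested did (1822 genes and 1 member had an unadjusted p under 0.05). That member was Hsph1, which differed by -1.01 ± 0.14 (adjusted p = 0.0671) and passed without control vehicle replicate 1 (-1.18, adjusted p = 0.0181). Among combination tumours 0 of 9 passed, where 4.24% of all genes tested changed (2.66% higher and 1.58% lower) and 3 members had an unadjusted p under 0.05. Hspa1a was 1.21 ± 0.46 higher in pmel-1 than in control combination tumours (adjusted p = 0.142), with all 3 pmel-1 arrays above both control arrays. On the probe set used, Hspa5 was -0.42 ± 0.12 apart (adjusted p = 0.064), with all 3 pmel-1 arrays below both control arrays. Another Hspa5 probe set differed by -0.85 ± 0.23 (limma on every probe set, adjusted p = 0.0648). The dimmest went the other way (0.16 ± 0.10, adjusted p = 0.339), with the pmel-1 arrays above both control arrays. The 3′ over 5′ log2 ratio was 0.86 to 1.31 in pmel-1 and 0.19 to 0.42 in control combination tumours. Leukocyte markers also differed, and their part was not tested. The test of the difference between the combination's effect in pmel-1 and in control recipients passed for 0 of 9 members and for 0.283% of all genes tested (0.232% with a higher and 0.0508% with a lower effect in pmel-1 recipients), with 1 member (Hsph1) at an unadjusted p under 0.05. For Hspa1a that difference was 0.61 ± 0.69 (adjusted p = 0.711).

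Single drugs were measured after pmel-1 transfer. These comparisons share the pmel-1 vehicle arrays with each other and with the pmel-1 combination comparison, and Hspa1a and Hspa1b, whose levels chose the set, are given without a test. In dabrafenib tumours Hspa1a read 8.25 and 6.91, against 10.62 and 8.80 in pmel-1 vehicle tumours, a difference of -2.13 ± 0.51. Hspa1b read 10.04 and 8.82 in dabrafenib tumours, against 11.97 and 10.39 in pmel-1 vehicle tumours, a difference of -1.75 ± 0.47. In trametinib tumours Hspa1a read 10.43 and 10.46 and Hspa1b 12.06 and 11.92, which are 0.74 ± 0.51 and 0.81 ± 0.47 above the pmel-1 vehicle means. Both trametinib arrays lay between the 2 vehicle arrays for Hspa1a, so those groups overlap. Against the vehicle group without its replicate 1 the Hspa1a difference was -1.22 for dabrafenib and 1.65 for trametinib, and without its replicate 2 it was -3.04 for dabrafenib and -0.18 for trametinib, so the direction for trametinib turned with the vehicle array used.

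Of the other 7 members, 4 fell with dabrafenib and none rose, where 41.4% of all genes tested changed, 21.8% rose and 19.6% fell. Hspb1 read 8.90 and 8.37 in dabrafenib tumours and fell by 1.46 ± 0.44 (adjusted p = 0.0196). Hsp90aa1 read 11.92 and 11.66 and fell by 0.51 ± 0.12 (adjusted p = 0.0067). Dnajb1 read 10.50 and 10.36 and fell by 0.37 ± 0.10 (adjusted p = 0.0106), and Hsph1 read 9.06 and 8.84 and fell by 0.42 ± 0.14 (adjusted p = 0.0357). Both dabrafenib arrays lay below both vehicle arrays for these 4 genes, but the share of all genes tested that lay apart was not counted. Hspa5 read 13.17 and 12.90 and differed by -0.33 ± 0.13 (adjusted p = 0.0554), and Hspa8 and Bag3 overlapped with vehicle. The count was 0 without dabrafenib replicate 2, the array with the highest 3′ over 5′ ratio (1.65) and an Adipoq level of 10.3, and 1 without pmel-1 vehicle replicate 1. It was also 0 with the ratio as a covariate, where Hspb1 differed by -0.89 (adjusted p = 0.348).

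With trametinib, 0 of the 7 members passed in limma, where 38.6% of all genes tested changed (19.5% rose and 19.1% fell), and 0 members had an unadjusted p under 0.05. Hspb1 read 10.18 and 10.29 in trametinib tumours, between the 2 vehicle arrays, and Hspa5 read 13.45 and 13.51, just above both vehicle arrays (0.11 ± 0.13, adjusted p = 0.551). Hsp90aa1 read 12.11 and 12.08, below both vehicle arrays (-0.20 ± 0.12, adjusted p = 0.23). The combination against dabrafenib gave 0 of 7 and 0% of all genes (246 genes and 0 members had an unadjusted p under 0.05), with Hspa1a 0.78 ± 0.46 apart and overlapping. The combination against trametinib gave 1 of 7, where 1.10% of all genes tested changed (0.856% rose and 0.239% fell). This was Hspa5, which read 12.94, 12.80 and 12.95 in pmel-1 combination tumours and fell by 0.58 ± 0.12 (adjusted p = 0.0423), a call that was lost on leaving out any 1 of the 5 arrays (adjusted p of 0.0742 to 0.403). The differences in combination against trametinib tumours were -2.08 ± 0.46 for Hspa1a and -2.01 ± 0.43 for Hspa1b, with no overlap.

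**Figure D3:**
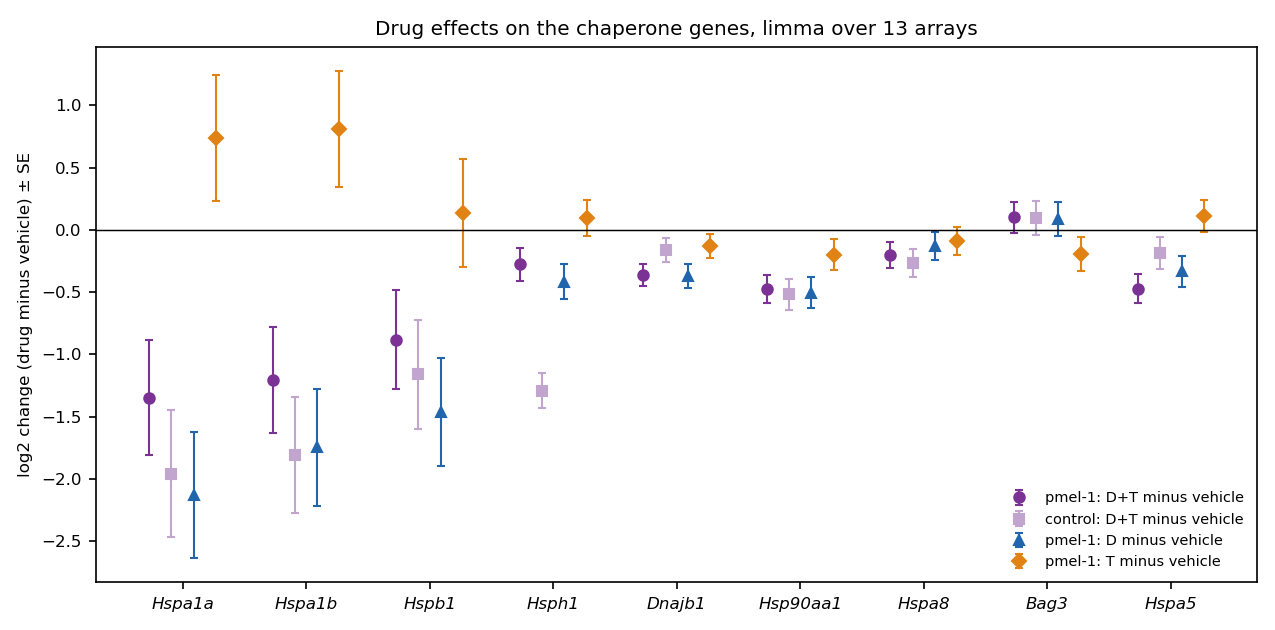
Log2 change against vehicle ± SE (limma over 13 arrays) for each gene, in pmel-1 recipients for both drugs (purple circles), dabrafenib (blue triangles) and trametinib (orange diamonds), and in control recipients for both drugs (pale squares). For Hspa1a the changes are -1.35, -2.13 and 0.74 in pmel-1 recipients and -1.96 in control recipients. On the probe set with the highest mean, Bag3 and Hspa8 stay close to 0 in all 4.

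Between dabrafenib and trametinib tumours, the contrast that chose the set, values are given as a description. Hspa1a read 8.25 and 6.91 in dabrafenib tumours, against 10.43 and 10.46 in trametinib tumours, which is 7.28-fold lower (-2.86 ± 0.51). Hspa1b read 10.04 and 8.82 in dabrafenib tumours, against 12.06 and 11.92 in trametinib tumours, 5.87-fold lower (-2.55 ± 0.47). Hspb1 read 8.90 and 8.37 in dabrafenib tumours, against 10.18 and 10.29 in trametinib tumours, 3.03-fold lower (-1.60 ± 0.44). These 3 of the 9 genes differed by 2-fold or more. Hspa1a and Hspa1b are in the set because they differed here, so that count is no result about the set. Of all genes tested, 1.26% differed by 2-fold or more, and 0.370% were lower by that much with dabrafenib. Hsph1 (-0.51 ± 0.14), Hspa5 (-0.44 ± 0.13), Hsp90aa1 (-0.31 ± 0.12) and Dnajb1 (-0.24 ± 0.10) were lower by less than 2-fold. Both dabrafenib arrays lay below both trametinib arrays for these genes, but the share of all genes tested that lay apart was not counted. Bag3 was higher (0.28 ± 0.13), with dabrafenib at 11.56 and 11.11 and trametinib at 11.05 and 11.06, and Hspa8 overlapped (-0.04 ± 0.11).

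The 2 dabrafenib arrays differed from each other by 1.35 for Hspa1a, and the 2 trametinib arrays by 0.03. Without dabrafenib replicate 2 the Hspa1a difference was -2.19, and without dabrafenib replicate 1 it was -3.54. Leukocyte markers averaged 9.22 to 9.82 in dabrafenib and 7.76 to 8.31 in trametinib tumours, and their part in these differences was not tested. The 3′ over 5′ log2 ratio was 0.60 and 1.65 in dabrafenib and 1.22 and 0.68 in trametinib tumours, and with it as a covariate Hspa1a differed by -2.69 and Hspb1 by -1.49.

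By group mean, Hspa1a stood in the order trametinib (10.44 ± 0.02), pmel-1 vehicle (9.71 ± 1.29), control vehicle (9.11 ± 0.07), pmel-1 combination (8.36 ± 0.21), dabrafenib (7.58 ± 0.95) and control combination (7.15 ± 0.35; SD, n = 3 for the pmel-1 combination and 2 otherwise). Neighbours in that order overlapped except control vehicle and pmel-1 combination. Hspa1b had the same order with the same pair of neighbours apart. As single arrays the groups are not set apart by a wide step, since pmel-1 vehicle replicate 2, at 8.80 for Hspa1a and 10.39 for Hspa1b, lay close to the highest pmel-1 combination array, at 8.58 and 10.35. Hspa5 stood differently, with control vehicle (13.50 ± 0.19) and trametinib (13.48 ± 0.04) at the top and dabrafenib (13.04 ± 0.19) and pmel-1 combination (12.90 ± 0.08) at the bottom.

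The widest gap within a group was in pmel-1 vehicle tumours. Replicate 1 exceeded replicate 2 by 1.82 for Hspa1a, 1.58 for Hspa1b and 1.48 for Hspb1, and 2, 4 and 5 of the 13785 genes tested had a gap at least as wide, these genes included. The immediate early stress genes (Fos, Egr1 and others, which cells switch on within minutes of a stimulus) were also higher there: their mean over 12 genes was 10.18 on replicate 1 and 9.63 on replicate 2, against at most 9.50 in control vehicle tumours. Fos read 12.28 and 11.20 on those pmel-1 vehicle arrays. Their part in the HSP70 levels was not tested.

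Over the 13 arrays Hspa1a and Hspa1b ran together (Pearson r = 0.99), as did Hspa1a and Hspb1 (r = 0.93), while Hspa1a correlated less with Dnajb1 (0.60), Hsp90aa1 (0.51), Hspa5 (0.49), Hsph1 (0.46) and Hspa8 (0.35), and negatively with Bag3 (-0.25). Dnajb1, Hsp90aa1 and Hspa5 correlated with each other at 0.80 to 0.89. Hsp90aa1 also did so with Hsph1 (0.87) and Hspa8 (0.84), while Hsph1 stood at 0.65 with Dnajb1 and 0.63 with Hspa5, and Hspa8 at 0.72 with both. These correlations share groups and RNA quality and are descriptions of 13 arrays. The 3 Hspa1b probe sets tracked the Hspa1a probe set with r of 0.994 to 0.996. As the 2 transcripts are nearly identical, probe sets named for one gene may read both. The counts of members treat them as 2 genes, although they may not be separate observations.

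The genes whose pattern over the 13 arrays was most like that of Hspa1a were Ero1a (r = 0.92), an oxidase of the endoplasmic reticulum that hypoxia induces, Pfkp (0.90), the platelet form of phosphofructokinase, Uhrf1bp1l (0.90), Sesn2 (0.89), a stress-induced sestrin, and Adcy9 (0.89), an adenylate cyclase. Ero1a read 9.64 and 9.41 in control combination tumours, against 10.71 and 10.29 in control vehicle tumours, and 10.17 and 9.73 in dabrafenib against 10.82 and 11.04 in trametinib tumours. For Hspb1 they were Ccn1 (0.89), a matricellular protein, Uhrf1bp1l (0.89), P4hb (0.89), the protein disulfide isomerase, Pgf (0.87), placental growth factor, and Vwa1 (0.85). For Hspa5 they were Fbxo45 (0.96), Mex3a (0.91), Fnbp1l (0.90), Bmi1 (0.90), a Polycomb protein, and N4bp2 (0.89). No correlation was tested.

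Other probe sets of the same genes gave other sizes of change. Averaged over both recipients, the second Dnajb1 probe set differed by -0.98 ± 0.13, against -0.26 ± 0.07 for the brighter one used above. It read 8.38, 8.40 and 8.53 in pmel-1 combination tumours, against 9.98 and 9.55 in pmel-1 vehicle tumours. For Hsp90aa1 another probe set differed by -1.17 ± 0.18, against -0.50 ± 0.09 for the brighter one, and for Hspa8 another differed by -0.83 ± 0.11, against -0.24 ± 0.08. With trametinib, where the brighter probe sets did not pass, a pair of other Hsp90aa1 probe sets (-1.25 ± 0.26, adjusted p = 0.0038, and -1.27 ± 0.32, adjusted p = 0.0096) and the second Dnajb1 probe set (-0.84 ± 0.19, adjusted p = 0.0058) fell, so the count of 0 for trametinib holds for the probe set with the highest mean only. The 3′ over 5′ log2 ratio was 1.22 and 0.68 on the trametinib arrays, against 0.22 and 0.18 on the pmel-1 vehicle arrays. In the same order of trametinib arrays, the Hsp90aa1 pair read 9.88 and 10.27, and 8.95 and 10.04. The second Dnajb1 probe set read 8.78 and 9.07 there. The part of the ratio in the changes of these other probe sets was not tested. The Hspa8 probe set that fell with the combination differed by 0.26 ± 0.16 with trametinib. One Hspa8 probe set (0.06 ± 0.10), one of Hsp90aa1 (-0.08 ± 0.11) and one of Hspa5 (-0.05 ± 0.07) showed differences under their SE for the combination, but that Hsp90aa1 probe set read under the filter level on 10 of 13 arrays and gives no measure of a change.

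**Figure D4:**
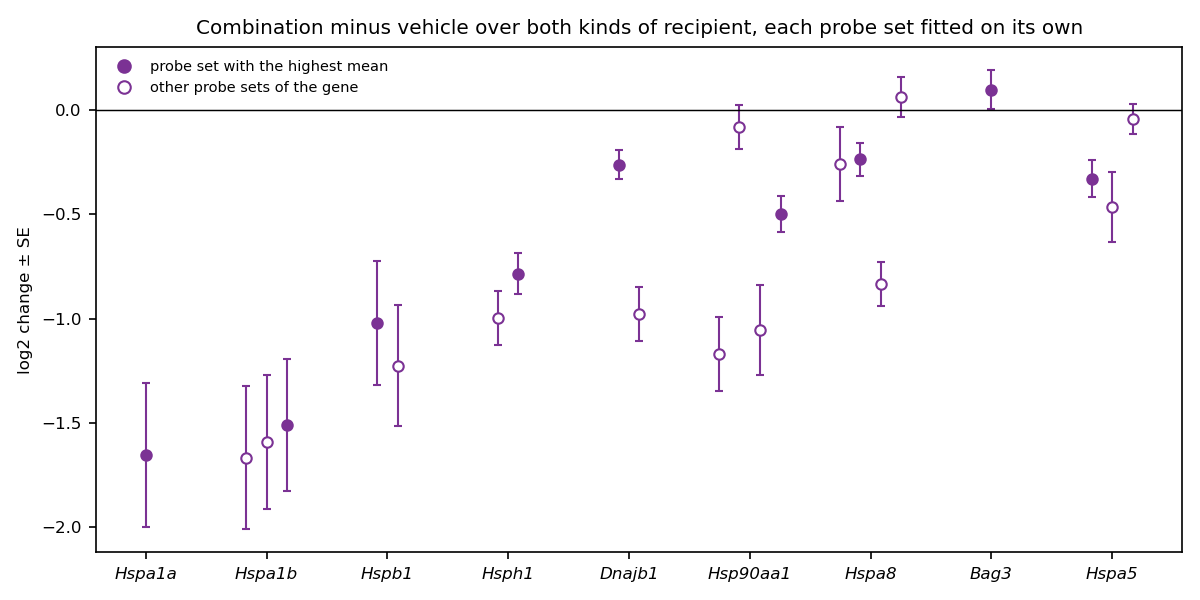
Log2 change with the combination, averaged over both recipients, ± SE, for each probe set fitted on its own (filled: the probe set with the highest mean; open: others). The 3 Hspa1b probe sets lie between -1.67 and -1.51, while those of Dnajb1 lie at -0.26 and -0.98 and those of Hsp90aa1 between -1.17 and -0.08, the last read near background.

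The rest of the chaperone network was read from 12 lists with 109 different genes, in the combination averaged over both recipients. There 52.6% of all genes tested changed, 28.1% rose and 24.5% fell. The cytosolic chaperonin TRiC, which folds actin and tubulin, had 7 of 8 subunits that fell and none that rose (median -0.63), with Cct3 at -0.78 ± 0.07. The mitochondrial chaperones and proteases had 7 of 8 that fell and none that rose (median -0.48), including Hspa9, the mitochondrial HSP70 (-0.98 ± 0.09), Hspd1, the mitochondrial HSP60 (-0.84 ± 0.07), and Hspe1 (-0.55 ± 0.07). Among HSP90 co-chaperones 6 of 8 fell and none rose (median -0.68): Fkbp5, a glucocorticoid target (-2.49 ± 0.13), Stip1, which links HSP70 to HSP90 (-1.18 ± 0.08), and Fkbp4 (-0.76 ± 0.07). BAG proteins and nucleotide exchange factors had 6 of 8 that fell and 1 that rose (median -0.41), with Bag2 at -1.44 ± 0.17. Medians of all 12 lists stand beside 0.01 for all genes tested.

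Within the HSP70 and HSP110 family outside the members, 2 of 7 fell (Hspa4 by 1.11 ± 0.10 and Hspa14 by 0.81 ± 0.07) and 2 rose, Hspa4l among them (0.59 ± 0.11). Of 8 J proteins 2 rose and 2 fell (median 0.01), with Dnajb2 up by 0.82 ± 0.10. As 28.1% of all genes tested rose and 24.5% fell, the counts of these 2 lists lie near the shares over all genes. Of 6 other small heat shock proteins, 2 rose and none fell (median 0.04, with 3 above and 3 below 0), Cryab (αB-crystallin) by 1.23 ± 0.10 and Hspb2, its neighbour in the genome, by 0.95 ± 0.11. Cryab read 13.46 and 13.39 in control combination tumours, against 12.26 and 11.98 in control vehicle tumours. Of 16 heat-inducible HSF1 targets outside the members, 9 fell and 2 rose (median -0.44), with Stip1, Hspa4 and Cryab as above. The other heat shock factor genes had 1 of 4 that fell (Hsf2, -0.55 ± 0.15) and 1 that rose (Hsf4, 0.36 ± 0.08), which is also near those shares.

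The unfolded protein response and endoplasmic reticulum chaperones had no common direction: 10 of 24 fell and 6 rose (median -0.04, with 12 below and 12 above 0). Of all genes tested, 24.5% fell and 28.1% rose. Atf6, one of the sensors, rose by 0.71 ± 0.07 and Eif2ak3 (PERK), another, by 0.59 ± 0.07, while Manf, a secreted ER stress protein, fell by 0.69 ± 0.08. Of 12 immediate early genes 8 fell and none rose (median -0.71), with Egr1, a direct target of ERK signalling, at -2.42 ± 0.23, Ier3 at -1.09 ± 0.10 and Atf3 at -1.08 ± 0.17. Of 8 oxidative and metal stress genes 3 fell, with Txnrd1 at -0.86 ± 0.11, and 2 rose, the metallothioneins Mt1 (0.39 ± 0.07) and Mt2 (0.42 ± 0.09), with a median of 0.10.

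Between dabrafenib and trametinib the list medians ran from -0.29 (immediate early genes, with 2 of 12 at 2-fold or more) to 0.09 (mitochondrial chaperones), against 0.01 for all genes tested. Of all genes tested, 1.26% differed by 2-fold or more. Signs were uneven in 3 lists: all 8 oxidative and metal stress genes, 20 of 24 endoplasmic reticulum genes and 10 of 12 immediate early genes were lower with dabrafenib. Of the 16 heat-inducible HSF1 targets outside the members 0 differed by 2-fold or more, and their median was 0.04. With so small a share over all genes tested, 0 of 16 does not set these targets apart. No list was tested in this contrast. Stip1 read 9.37 and 9.03 in dabrafenib tumours, against 9.02 and 9.14 in trametinib tumours, and both pairs lay below the 10.26 and 10.24 of pmel-1 vehicle tumours. Hspa4 likewise read 10.42 and 10.06 with dabrafenib, 10.14 and 10.22 with trametinib, and 11.32 and 11.31 with vehicle.

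**Figure D5:**
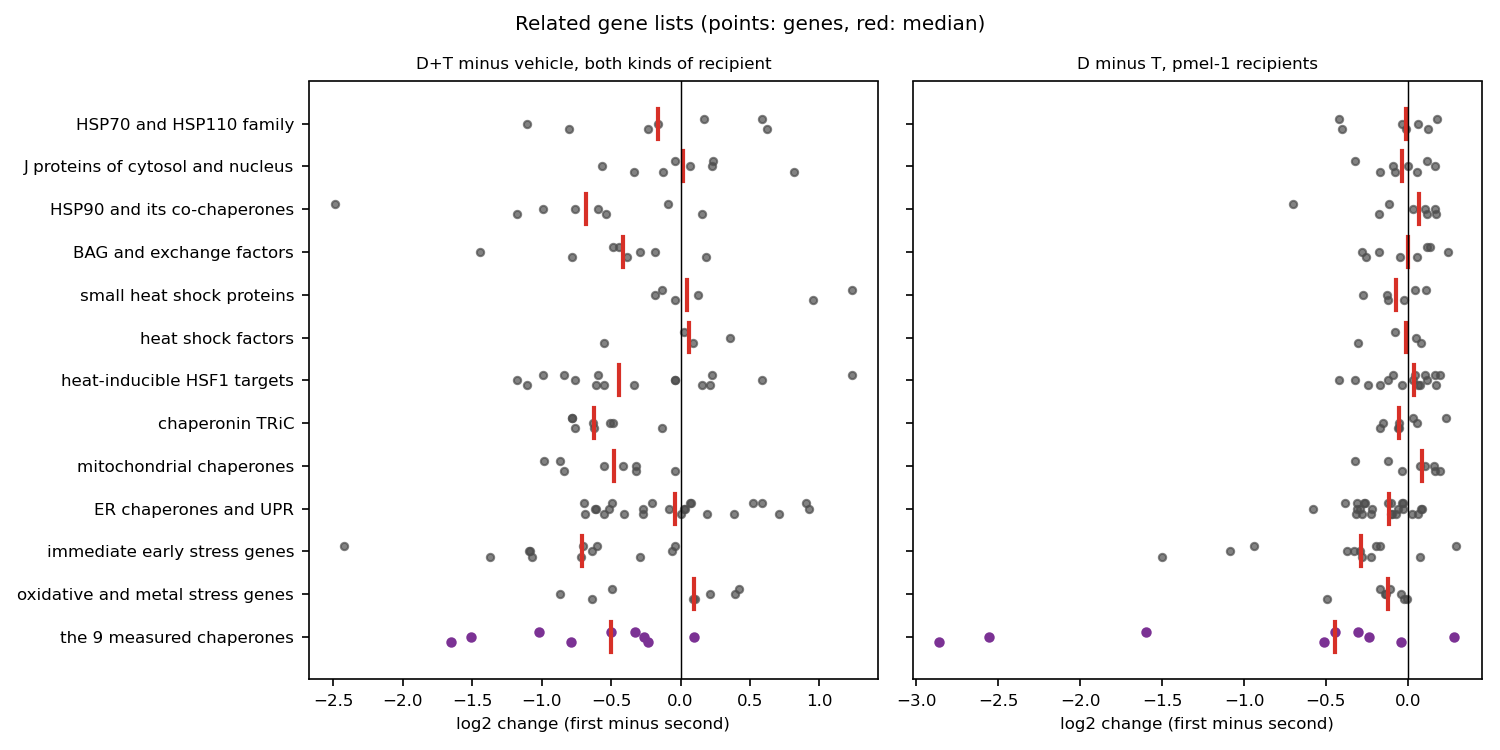
Log2 change of each gene (points) in 12 related lists and in the 9 measured chaperones (purple), with list medians (red), for both drugs minus vehicle over both recipients (left) and dabrafenib minus trametinib (right). On the left TRiC, HSP90 co-chaperones, mitochondrial chaperones and immediate early genes have medians of -0.48 to -0.71, and on the right the list medians lie between -0.29 and 0.09 while Hspa1a and Hspa1b lie at -2.86 and -2.55.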

How the data were processed

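The values are log2 intensities per probe set, deposited by the authors in 1 table of 45101 probe sets and 13 arrays. The submitters' processing notes name RMA and the affy package, with no versions, and how they were run is not given in those notes. Precision is limited by how few arrays there are. Probe sets annotated to 1 symbol (34945) were used, those with several (932) or none (9160) and 64 array controls were not. For each gene the probe set with the highest mean was kept, and a gene was tested where 2 or more arrays read over 5.79, which is the 40th percentile of the table. limma 3.58.1 (R 4.3.3) fitted 1 mean per group to the 13 arrays (7 residual degrees of freedom), with Benjamini-Hochberg adjustment over 13785 genes and a threshold of 0.05. "Rose" and "fell" are used of genes that passed. The fit was tested on simulated data. The 3′ over 5′ ratio is the mean log2 difference of the actin and Gapdh control probe sets.

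The members and lists were chosen with earlier results of these data known. Named list genes are the up to 3 with the smallest p in the combination against vehicle over both recipients, and genes of like pattern are the 5 with the highest Pearson r, leaving out members and symbols of unnamed genes. The alternatives tried were other probe set rules, filters and scalings, adjustment for the 3′ over 5′ ratio, the replicate block, array weights, fewer groups in the fit and leaving out arrays.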

Additional observations from a re-analysis of the deposited data

How the results depend on the processing

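Counts of members that passed changed with some settings. After adjustment for the 3′ over 5′ ratio they were 0 in place of 5 (combination against vehicle, pmel-1), 0 in place of 4 (dabrafenib against vehicle) and 5 in place of 8 (both recipients), and 4 in control recipients as before. With the mean over all probe sets they were 7 in place of 4 (combination, control), 2 in place of 0 (trametinib against vehicle) and 0 in place of 1 (combination against trametinib). Array weights gave 1 in place of 0 for the interaction and for pmel-1 against control vehicle, in both cases Hsph1. With only the arrays compared, the counts were 2 in place of 0 (pmel-1 against control combination: Hspa1a and Hspa1b), 1 in place of 4 (dabrafenib) and 0 in place of 1 (combination against trametinib), which was also 0 with every probe set fitted on its own. Leaving out the 3 arrays with Adipoq over 9, chosen after seeing the data, gave 3 (combination, pmel-1), 0 (dabrafenib) and 0 (combination against trametinib). Leaving out 1 array gave 2 to 6 members (combination, pmel-1), 1 to 5 (combination, control), 7 to 8 (both recipients), 0 to 5 (dabrafenib), 0 to 1 (pmel-1 against control vehicle) and 0 to 0 (combination against trametinib). The 3 members at 2-fold or more between dabrafenib and trametinib were 3 under each alternative. The causes of these shifts were not tested. Counts over all genes are given below for part of these settings only. Whether members gained or lost calls more than genes in general therefore cannot be read from these counts.

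Over 23 pairs of arrays with the same replicate number the median correlation of deviations from the group means was -0.07, and 4 exceeded 0.1. Single pairs ran from -0.46 to 0.45. Where a group holds only a pair of arrays, their deviations are mirror images, so these correlations are not independent. Whether arrays with the same number share a batch therefore cannot be decided from them. The replicate block gave 0 in place of 1 for the combination against trametinib (Hspa5, adjusted p = 0.106), 6 in place of 5 for the pmel-1 combination, 7 in place of 8 over both recipients and the same count elsewhere.

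Alternatives were compared for 78 of the members' differences. Those smaller than their SE were left out, except for Hspa1a and Hspa1b, so turns of sign among them were not counted. Of the values compared, 12 turned sign: 9 of differences that were tested and had not passed, and 3 of untested ones. Without pmel-1 vehicle replicate 2 the interaction was -0.30 for Hspa1a and -0.18 for Hspa1b, and leaving out each array in turn gave -0.30 to 1.52 and -0.18 to 1.39. Without pmel-1 vehicle replicate 1, pmel-1 against control vehicle was -0.31 for Hspa1a and -0.29 for Hspa1b (over all arrays left out in turn, -0.31 to 1.51 and -0.29 to 1.28). In that comparison Hsp90aa1 was 0.0716 with the mean over all probe sets and Hspa5 0.0037 without control vehicle replicate 1 (lowest -0.27). After adjustment for the 3′ over 5′ ratio Hsp90aa1 was 9e-04 (pmel-1 against control combination), Hspa8 0.0047 (dabrafenib against vehicle) and Bag3 0.0338 (trametinib against vehicle). The untested ones were Hspa1a for trametinib against vehicle (-0.18 without pmel-1 vehicle replicate 2) and Hspa1b for the combination against dabrafenib (-0.07 without dabrafenib replicate 2 and -0.02 without the Adipoq arrays). Of the other values 1144 counted as the same: tested ones kept direction and side of the threshold, and untested ones moved by less than 1 SD. A further 58 lost a call, 18 gained one and 40 untested ones, these 3 included, moved by more than 1 SD.

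The genes called over the whole array changed too: after the same adjustment they were 2756 in place of 6282 (combination, pmel-1), 2511 in place of 5709 (dabrafenib), 3371 in place of 5323 (trametinib), 46 in place of 584 (pmel-1 against control combination) and 0 in place of 39 (interaction). With every probe set fitted on its own, over more features, they were 12425, 11292 and 10439 for the first 3, 8336 in place of 4874 (combination, control) and 13863 in place of 7252 (both recipients). For the interaction (39) the other counts past 1.5 times, single arrays left out apart, were 104 (every probe set), 67 (arrays centred), 1 (block), 65 (array weights), 90 (only the arrays compared) and 85 (without the Adipoq arrays). For pmel-1 against control combination (584) they were 232 (block), 378 (only the arrays compared) and 331 (without the Adipoq arrays), for dabrafenib 3307 (without the Adipoq arrays), and for the combination against trametinib (151) 12 (block) and 286 (array weights). For pmel-1 against control vehicle (0) the counts ran up to 48 (without control vehicle replicate 1).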
